A study of Mus musculus with 30 samples.

Results

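The nuclear genes of the mitochondrial respiratory chain were followed through 2 RNA-seq experiments on mouse embryonic stem cells (ESCs). Members were all genes whose symbol begins with Nduf, Uqcr, Cox4 to Cox8 or Atp5, together with Sdha, Sdhb, Sdhc, Sdhd and Cyc1. Usmg5 was taken in by its other symbol, Atp5md. Of 114 matching symbols, 14 with the suffix -ps and 4 other pseudogenes were left out, which gave 96 of the 55940 gene identifiers in the tables. By role, 36 were complex I subunits, 8 were complex I assembly factors (Ndufaf genes), 4 belonged to complex II, 9 to complex III, 20 to complex IV and 19 to complex V. Ndufa4 and its paralogue Ndufa4l2 were counted with complex IV, where the Ndufa4 protein resides. The other 4 identifiers were too low to test in either experiment: Cox6a2, Cox8b and Cox8c never passed 4 counts in a library, and a further identifier for Atp5o had 0 counts. The remaining 92 were tested in both.

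The cells were E14tg2a, an established feeder-independent ESC line. In the time course, ESCs were in Serum/LIF (0 h) or had spent 3, 9 or 24 h in EMM (Enhanced Metabolic Media), which is the same serum and LIF medium with D-galactose in place of glucose and pyruvate. In the passage experiment, ESCs were held in Serum/LIF, EMM or 2i/LIF, a medium with inhibitors of GSK3 and MEK, and sampled at passage 10 (P10) and passage 20 (P20). Each group had 3 libraries, described as independent experiments, so there were 12 libraries in the time course and 18 in the passage experiment. Total counts were 24074132 to 35301962 per library in the time course and 6944904 to 27912928 in the passage experiment. All groups derive from a single line, and RNA was taken from whole cultures, so fewer cells of a type and less RNA per cell cannot be told apart. The cultures expressed the 10 ESC markers examined (Pou5f1, Sox2, Nanog and others) at a summed 6012 to 6536 CPM (counts scaled to a common library total) in the time course and 4779 to 8679 CPM in the passage experiment.

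The respiratory chain sits in the inner mitochondrial membrane. Complex I takes electrons from NADH and complex II takes them from succinate. Complex III passes them to cytochrome c, and complex IV hands them to oxygen. Complexes I, III and IV pump protons, and complex V, the ATP synthase, uses the proton gradient to make ATP. The mitochondrial genome encodes a small set of core subunits, and the nuclear genes described here encode the rest, complex II included. Galactose yields little ATP through glycolysis, which is why galactose medium is used to make cells rely on the chain.

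A set of libraries stood apart in the time course. In Serum/LIF 1 and 3, EMM 9 h 3 and EMM 24 h 2 and 3, 15 of the 92 tested members (16.3%) were higher in all 5 than in any of the other 7 libraries, against 238 of 16049 genes tested (1.48%). These libraries were picked on these very values, so the counts are a description. Ndufb6, an accessory subunit of complex I, shows the pattern: its normalised read counts (counts scaled to a common library size) were 1172, 488 and 1710 in Serum/LIF, 500, 548 and 482 at 3 h, 473, 451 and 1742 at 9 h, and 430, 1670 and 1684 at 24 h. Within a group, single libraries thus differed several-fold, and the groups overlapped. The other 14 were Atp5g3, Cox5a, Cox5b, Cox6a1, Cox8a, Ndufa12, Ndufa13, Ndufa6, Ndufab1, Ndufaf8, Ndufb11, Ndufb7, Ndufv3 and Uqcr11. None of the 4 complex II genes was among them. What sets these libraries apart was not tested, and counts of the time course, with the values of the members they bear on most, are given with and without them.

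**Figure D1:**
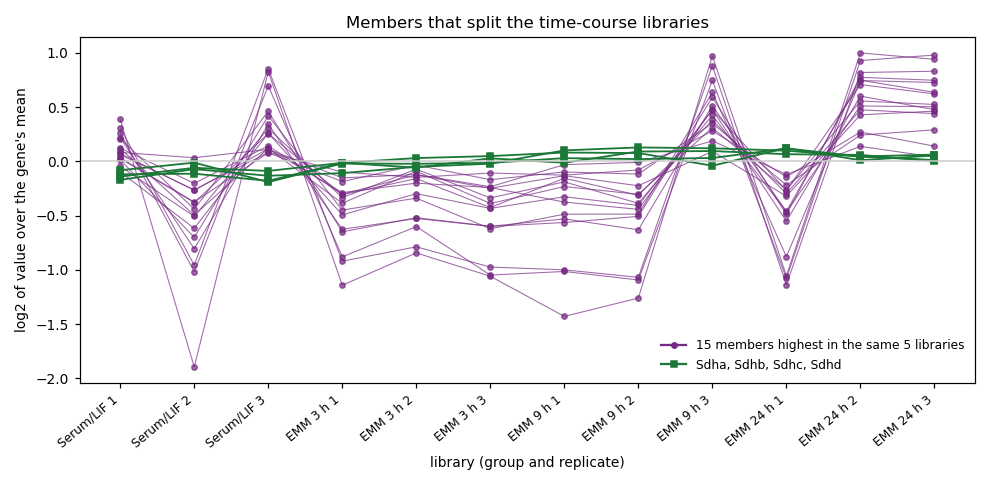
Log2 of each library's normalised read count over the gene's mean, for the 12 time-course libraries in order of group and replicate; each purple line is 1 of the 15 members that were highest in the same 5 libraries, and green lines are Sdha, Sdhb, Sdhc and Sdhd. The purple lines rise together in Serum/LIF 1 and 3, EMM 9 h 3 and EMM 24 h 2 and 3, whereas the green lines stay close to 0.

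To ask how the chain responded to galactose, each time in EMM was compared with Serum/LIF. The 3 comparisons share the Serum/LIF libraries. The changes were small, and more members were called with time. After 3 h, 7 of 92 members were higher and 3 lower (34.5% of all genes tested were called in either direction at an adjusted p under 0.01, 16.3% higher and 18.2% lower). After 9 h, 10 were higher and 1 lower (38.2% of all genes, 18.5% higher and 19.7% lower). After 24 h, 27 were higher and 4 lower (44.0% of all genes, 21.8% higher and 22.2% lower), and 61 were not called. The share of members called lay below that of all genes at every time, and at 24 h the called members lay mostly on the higher side. Without Serum/LIF 3 or any 1 of the EMM 3 h libraries, 2 or 3 members were higher at 3 h, and without Serum/LIF 2 or 3 or any 1 of the EMM 3 h libraries 1 was lower. At 9 h the lower members numbered 4 without Serum/LIF 3 and 0 without Serum/LIF 1, Serum/LIF 2 or EMM 9 h 2. The median log2 fold change of the 92 members was 0.03, 0.05 and 0.14 at the 3 times, with the median of all genes at -0.01, 0.00 and 0.00. Without the 5 libraries that stood apart, 10 members were higher and 3 lower at 3 h, and 13 were higher and 3 lower at 9 h, with Serum/LIF then 1 library that is assumed to vary like the other groups. Markers of other cell types moved over the same time: from Serum/LIF to 24 h, the summed level of 6 primitive endoderm markers went from a lowest value of 13.8 CPM to 25.0 to 25.5 CPM, that of trophoblast markers from 56.7 to 57.4 CPM to 76.6 to 79.1 CPM, that of mesoderm and neural markers from 28.2 to 29.4 CPM to 37.6 to 43.7 CPM, and that of fibroblast markers from 61.0 to 63.9 CPM to 42.5 to 50.2 CPM. Their part in the results was not tested. Summed over members, expression was 12365 ± 196 CPM (SD, n = 3) in Serum/LIF and 13158 ± 456 CPM at 24 h.

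At 24 h, all 4 genes of complex II were higher (median log2 fold change 0.17), beside 21.8% of all genes higher. In complex IV, 8 of 17 tested members were higher and 2 lower (median 0.25), in complex I 8 of 36 higher and 2 lower (0.12), in complex III 3 of 9 higher (0.14) and in complex V 3 of 18 higher (0.11). Of 8 complex I assembly factors, 1 was called, Ndufaf1, which was higher (median of the 8 -0.02). The summed level of complex IV went from 1846 ± 131 to 2264 ± 255 CPM, and that of complex V, the most abundant group, from 6005 ± 17.7 to 6057 ± 66.8 CPM (SD, n = 3). By library, complex IV was at 1913, 1695 and 1930 CPM in Serum/LIF and 1970, 2433 and 2389 CPM at 24 h. In the 1 library of either group that did not stand apart it was at 1695 CPM in Serum/LIF and 1970 CPM at 24 h. Without the 5 libraries that stood apart, 17 members were higher at 24 h, 14 of them shared with the 27, and 3 were lower, 1 of them shared with the 4. The calls lost, among those named here, were those of Sdhb, Sdhc, Sdhd, Ndufaf1, Ndufb10, Ndufc1, Uqcrh, Uqcr10, Atp5e, Atp5mpl, Cox4i1 and Cox7a1. This comparison rests on 1 library each of Serum/LIF and EMM 24 h. With a term for those libraries in the fit, 45 were higher and 7 lower, including all 31 calls. With Serum/LIF 2 or EMM 24 h 3 left out, 2 members rather than 4 were lower.

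**Figure D2:**
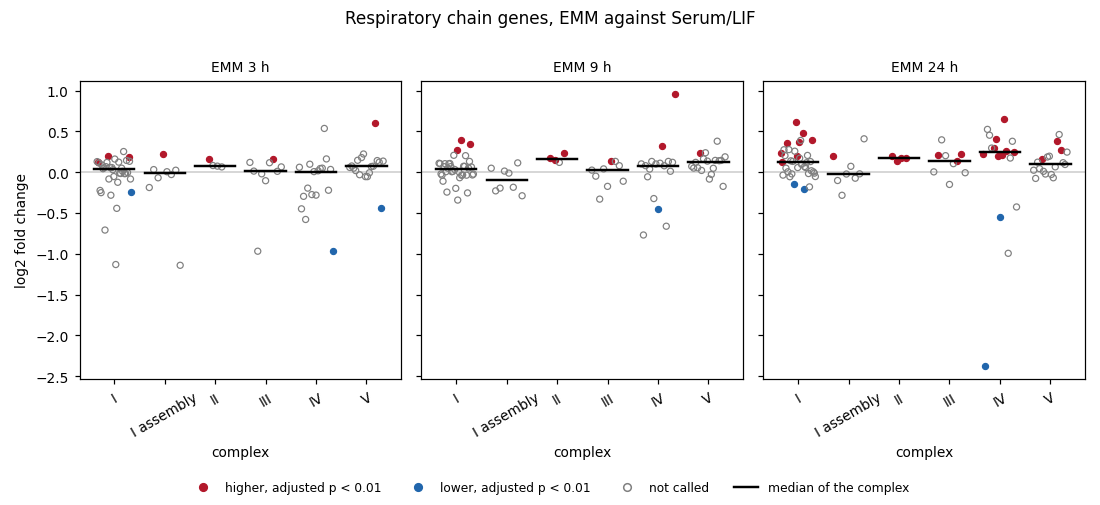
Log2 fold change of each tested member against Serum/LIF (y axis) by complex (x axis) after 3, 9 and 24 h in EMM; red points are called rises and blue points called falls (adjusted p under 0.01), open points were not called, and black lines are medians of a complex. Red points number 7, 10 and 27 at the 3 times, and at 24 h they include every complex II gene.

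Complex II, succinate dehydrogenase, is also an enzyme of the citric acid cycle. Sdha, its flavoprotein, had 9826, 9865 and 9427 normalised read counts in Serum/LIF, 10573, 10900 and 11040 at 3 h, 11293, 11255 and 10380 at 9 h, and 11621, 10751 and 11084 at 24 h. Every EMM library lay above every Serum/LIF library, and the log2 fold change at 24 h was 0.20 (SE 0.0419, adjusted p = 0.000829). Sdhc, which anchors the enzyme in the membrane, had 4122, 4328 and 3823 counts in Serum/LIF and 4738, 4502 and 4555 at 24 h (log2 fold change 0.17, SE 0.0417, adjusted p = 0.00297). Sdhd, the other anchor, had 3325, 3562 and 3414 counts in Serum/LIF, 4015, 4091 and 4069 at 9 h, and 4008, 3856 and 3776 at 24 h, when its log2 fold change was 0.18 (SE 0.0384, adjusted p = 0.00118). Sdhd reached its highest values at 9 h. Sdhb, the iron-sulfur subunit, had 2940, 3109 and 3048 counts in Serum/LIF and 3392, 3377 and 3247 at 24 h (log2 fold change 0.14, SE 0.0408, adjusted p = 0.00944). The fold changes at 24 h were 1.10 to 1.15. The Sdhb call was lost on leaving out Serum/LIF 1, Serum/LIF 3, EMM 24 h 1 or EMM 24 h 2. Without the libraries that stood apart, Sdha was still called at 24 h (0.24, adjusted p = 0.000233), and Sdhb (0.13, adjusted p = 0.103), Sdhc (0.13, adjusted p = 0.0343) and Sdhd (0.17, adjusted p = 0.0157) were not.

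Promoter sequence is shown for complex II because its genes were called together, and for Cox7a2l because it had the largest called rise at 24 h. RefSeq start-site windows of 300 bases (GRCm38.p6, 250 bases before to 50 after the start) were matched for 77 of 95 member symbols, Sdhc not among them. Each stretch below is 150 bases of that window, 5′ to 3′ on the strand of the gene, with motif matches in capitals. The Sdha stretch is chr13:74350281-74350430 on the minus strand, and its capitals are 2 matches to NRF1 (GCGC followed directly by NTGCGC, on either strand), a factor known for its sites at respiratory genes, which begin 98 and 55 bases before the start. Sdhb is chr4:140961053-140961202 on the plus strand, with 3 SP1 matches (GGGCGGG on either strand) at 153, 133 and 105 bases before the start. Sdhd is chr9:50603850-50603999 on the minus strand, with an NRF1 match at 79 bases and a GABPA match (CCGGAAG on either strand, the core of an ETS site) at 46 bases before the start. Cox7a2l is chr17:83514334-83514483 on the minus strand, with an SP1 match at 22 bases before the start. Outside the stretches shown, the Sdhb window also held a GABPA match, and the Sdhd window ERRA (CAAGGTCA) and SP1 matches.
Sdha: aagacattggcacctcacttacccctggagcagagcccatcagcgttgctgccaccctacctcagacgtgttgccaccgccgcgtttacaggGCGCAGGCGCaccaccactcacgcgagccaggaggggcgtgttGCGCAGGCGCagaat
Sdhb: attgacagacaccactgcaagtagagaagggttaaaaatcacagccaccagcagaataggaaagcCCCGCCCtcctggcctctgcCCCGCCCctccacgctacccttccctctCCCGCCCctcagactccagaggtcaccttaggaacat
Sdhd: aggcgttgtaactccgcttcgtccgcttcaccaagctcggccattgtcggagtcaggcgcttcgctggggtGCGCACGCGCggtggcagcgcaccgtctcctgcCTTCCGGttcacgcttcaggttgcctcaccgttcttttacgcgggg
Cox7a2l: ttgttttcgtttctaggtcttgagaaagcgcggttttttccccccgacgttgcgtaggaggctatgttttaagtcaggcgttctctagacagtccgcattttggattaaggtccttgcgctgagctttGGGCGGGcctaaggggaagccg

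Over the 77 matched members, NRF1 matches stood in 19 windows (24.7%), against 5.19% of the 27025 genes in the table. GABPA matches stood in 19 (24.7%, against 9.93%), YY1 matches (AAGATGGCG) in 8 (10.4%, against 1.64%), ERRA matches (CAAGGTCA) in 4 (5.19%, against 1.76%) and SP1 matches in 29 (37.7%, against 27.9%). By complex, NRF1 matches stood in 6 of 16 complex V windows and in 1 of 14 complex IV windows. The 27025 are all genes with a window, whether or not they were expressed in these cells. The members were not compared with expressed genes alone, so the shares do not show that the matches are particular to respiratory genes. These are letter matches in a fixed window, and no binding was measured here.

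The largest called rise at 24 h was that of Cox7a2l, whose protein joins complexes III and IV into supercomplexes. Its normalised read counts were 1751, 1708 and 1640 in Serum/LIF, 1770, 1750 and 1740 at 3 h, 2142, 2171 and 2028 at 9 h, and 2826, 2645 and 2559 at 24 h. The groups did not overlap from 9 h on, when the log2 fold change was 0.31 (SE 0.0449, adjusted p = 3.44e-05), and it reached 0.66 at 24 h (SE 0.0448, adjusted p = 1.35e-08). The change was 0.73 (adjusted p = 7.29e-09) without the libraries that stood apart.

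In complex I, the accessory subunit Ndufb9 had 2285, 2186 and 2220 counts in Serum/LIF, 2442, 2410 and 2433 at 3 h, 2854, 2777 and 3156 at 9 h, and 2903, 3308 and 3141 at 24 h (log2 fold change at 24 h 0.48, SE 0.0524, adjusted p = 1.73e-06). Ndufb5, a neighbour of it in the membrane arm, was the only member whose libraries at each time all lay above those of the time before. Its counts were 1946, 1985 and 1765 in Serum/LIF, 2118, 2077 and 2174 at 3 h, 2195, 2324 and 2340 at 9 h, and 2447, 2527 and 2370 at 24 h (log2 fold change at 24 h 0.37, SE 0.0475, adjusted p = 1.07e-05). Ndufs8, which carries iron-sulfur clusters, rose at 3 h (0.19), 9 h (0.34) and 24 h (0.40, SE 0.0484, adjusted p = 5.73e-06). Ndufb2 had 183, 163 and 188 counts in Serum/LIF and 242, 294 and 278 at 24 h (0.61, SE 0.127, adjusted p = 0.000824). Its share of the counts in Serum/LIF was 3.67 times larger in the passage experiment and that of Cox7a2l 2.40 times larger, and whether the counting or the cultures differed was not tested. On the genome, Ndufb5 overlaps Mrpl47, which differed by -0.35 at 24 h. Other named members, Ndufb2, Cox4i1 and Atp5l among them, also overlap a counted gene. The redox subunits Ndufs1, Ndufs7, Ndufv1 and Ndufv2 of complex I were not called at any time against Serum/LIF. At 3 h, Ndufa9 (0.19, adjusted p = 0.00865) was higher and Ndufv3 (-0.24, adjusted p = 0.00678) lower. Ndufv3 was among the 15 members highest in the libraries that stood apart. Without these libraries its value was -0.20 (adjusted p = 0.00387), and with a term for them it was -0.14 and not called (adjusted p = 0.0275). Its call was lost on leaving out any 1 of the 6 libraries compared, and that of Ndufa9 on leaving out any but Serum/LIF 2 and without the libraries that stood apart (0.15, adjusted p = 0.0109). Ndufc1 (-0.21, adjusted p = 0.00155) and Ndufb10 (-0.14, adjusted p = 0.00513) were lower at 24 h.

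In complex III, the Rieske iron-sulfur protein Uqcrfs1 was higher at 3 h (0.16, adjusted p = 0.00424) and 24 h (0.14, adjusted p = 0.00829), and the small subunits Uqcrh (0.22, adjusted p = 0.000916) and Uqcr10 (0.22, adjusted p = 0.00185) were higher at 24 h. The haem protein Cyc1 was not called at any time against Serum/LIF. Uqcrc2, a core subunit, was higher at 9 h (0.14, adjusted p = 0.00505). In complex V, Atp5l, a subunit of the membrane part, had 196, 146 and 161 counts in Serum/LIF and 284, 250 and 227 at 3 h, when it showed the largest called rise (0.60, SE 0.145, adjusted p = 0.0032). Its share of the counts in Serum/LIF was 25.1 times larger in the passage experiment (P10), at 142 CPM against 5.68 CPM, and why was not tested. Atp5s (-0.44, adjusted p = 0.00982) was lower at 3 h, a call lost on leaving out any 1 of the 6 libraries but Serum/LIF 1 and without the libraries that stood apart (-0.46, adjusted p = 0.0211). Atp5k (0.38, adjusted p = 0.000173) and Atp5mpl (0.28, adjusted p = 0.000204), small proteins of the membrane part, and Atp5e, a subunit of the central stalk (0.16, adjusted p = 0.0044), were higher at 24 h. The catalytic core genes Atp5a1 and Atp5b, the most abundant members, were not called against Serum/LIF. Atp5b had 69346, 70544 and 68293 counts in Serum/LIF and 67460, 65723 and 64267 at 24 h (-0.08), and it was lower at 24 h than at 3 h (-0.15, SE 0.0305, adjusted p = 0.000676).

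**Figure D3:**
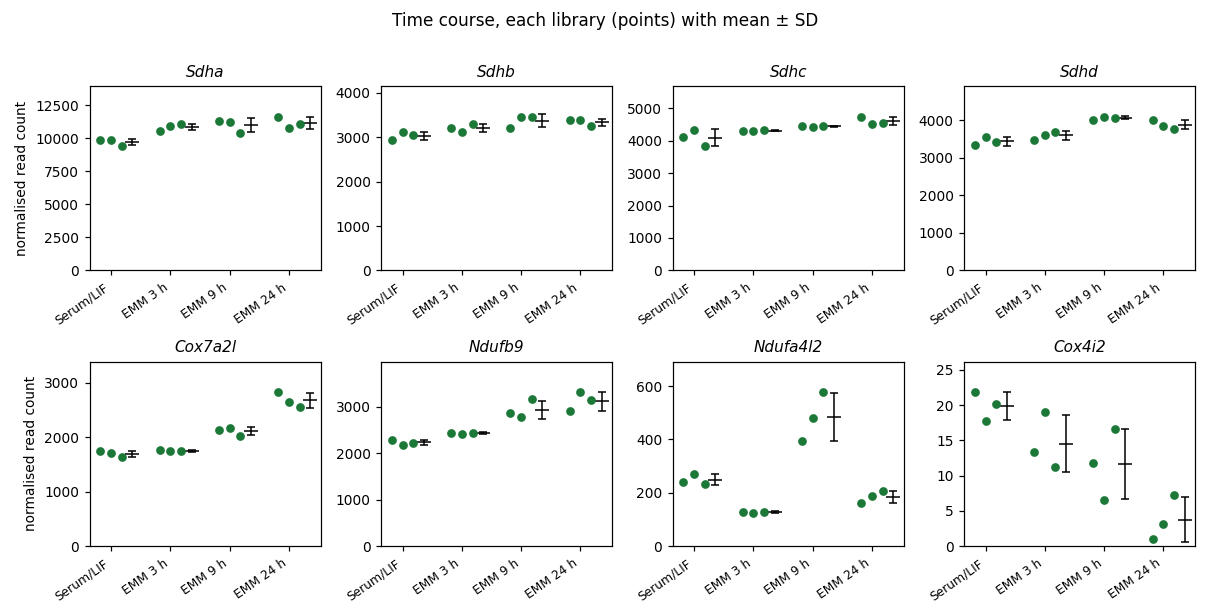
Normalised read counts (y axes, from 0) of 8 members in each time-course library; points are replicates 1 to 3 from left and bars are mean ± SD (n = 3). Cox7a2l and Ndufb9 lie above Serum/LIF at 9 h and 24 h, Ndufa4l2 is lowest at 3 h and highest at 9 h, and Cox4i2 stays at 22 counts or fewer.

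Several subunits of complex IV exist as isoforms that differ between tissues or conditions. Per kilobase of transcript, Cox4i1 was at 513 CPM in Serum/LIF and Cox4i2, the isoform of lung and low oxygen, at 0.92. Cox4i1 was higher at 24 h (log2 fold change 0.22, adjusted p = 0.000233), with 11354, 11314 and 11200 counts in Serum/LIF and 12546, 13574 and 13352 at 24 h. Cox4i2 fell from 22, 18 and 20 counts to 1, 3 and 7 (-2.37, SE 0.469, adjusted p = 0.000516). Cox7a1, the muscle and heart isoform, fell from 124, 106 and 98 counts to 70, 69 and 85 (-0.54, adjusted p = 0.00126), whereas its widely expressed counterpart Cox7a2 was higher (0.21, adjusted p = 7.09e-05). Per kilobase, Cox7a2 was at 183 CPM in Serum/LIF, Cox7a2l at 52.2 and Cox7a1 at 8.42. Cox6b1 (302 CPM per kilobase in Serum/LIF) and the testis-enriched isoform Cox6b2 (107 CPM per kilobase) were both higher at 24 h, by log2 0.30 (adjusted p = 3.24e-05) and 0.41 (adjusted p = 0.00258). Cox6b2 had 1469, 1446 and 1205 counts in Serum/LIF, 1158, 1227 and 1023 at 3 h, 1250, 1025 and 1015 at 9 h, and 2055, 1654 and 1772 at 24 h. The values at 3 h and 9 h were thus at the lower end. The call at 24 h was lost without Serum/LIF 3 (0.34) or EMM 24 h 1 (0.33).

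Ndufa4l2, a paralogue of Ndufa4 known as a target of HIF1, moved in opposite directions at 3 h and 9 h. Its counts were 240, 272 and 233 in Serum/LIF, 128, 124 and 130 at 3 h, 395, 480 and 576 at 9 h, and 161, 188 and 206 at 24 h. The libraries of no pair of neighbouring times overlapped. The log2 fold change against Serum/LIF was -0.97 at 3 h (SE 0.138, adjusted p = 4.09e-05) and 0.96 at 9 h (SE 0.121, adjusted p = 1.04e-05), and at 24 h it was -0.43 (adjusted p = 0.0129), which was called as lower (-0.75, adjusted p = 0.00103) without the libraries that stood apart. On the genome, Ndufa4l2 overlaps Shmt2 on the opposite strand, and Shmt2 differed by -0.11, -0.28 and -0.47 at the 3 times. Ndufa4 itself was higher at 24 h (0.25, adjusted p = 0.000261).

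Between 3 h and 24 h in EMM, 18 members were higher and 7 lower (40.1% of all genes called, 20.8% higher and 19.2% lower). EMM 24 h 2 and 3 were among the libraries that stood apart and no EMM 3 h library was, so these groups were unbalanced in this. The largest differences were those of Cox4i2 (-1.92, adjusted p = 0.00391), Cox7b2, a testis isoform at 6 to 24 counts in these groups (-1.53, adjusted p = 0.000638), Cox6b2 (0.69, adjusted p = 4.4e-05) and Cox7a2l (0.61, adjusted p = 5.21e-08). Of the 8 assembly factors, 1 was higher and 1 lower. Ndufaf4 had 1170, 1222 and 1201 counts in Serum/LIF, 1366, 1434 and 1408 at 3 h and 1140, 1221 and 1178 at 24 h, and fell by 0.25 on the log2 scale from 3 h to 24 h (adjusted p = 0.000345). Ndufaf1 went from 461, 506 and 489 counts at 3 h to 621, 613 and 664 at 24 h (0.38, adjusted p = 5.38e-05). Without EMM 24 h 1 the count of higher members was 34, without EMM 24 h 2 it was 10, and without EMM 3 h 2 that of lower members was 4. Without the libraries that stood apart, 13 were higher and 10 lower.

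Genes that build or serve the chain outside the member rule were also counted. Of 56 tested assembly factors, cytochrome c and coenzyme Q genes, 7 were higher and 14 lower at 24 h (median -0.10), beside 21.8% higher and 22.2% lower of all genes, and no test compared the list with the members. Lower genes included Tmem70, needed for ATP synthase assembly (-0.79), Sdhaf4, an assembly factor of complex II (-0.74), and Taco1, a translation factor for mt-Co1 (-0.71). Higher genes included Coq10a (0.55), Pet100 (0.46) and Tmem126b (0.38). Of the 13 protein genes of the mitochondrial genome, 7 were tested in the time course, and 6 were higher at 3 h, 3 at 9 h and 4 at 24 h (16.3%, 18.5% and 21.8% of all genes were higher), mt-Nd5 by 0.47 and mt-Co1 by 0.35 at 24 h.

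The passage experiment asked whether the medium set the level of the chain in long-term culture. At P10 in EMM, 20 of 92 members stood higher than in Serum/LIF and 1 stood lower (37.4% of all genes were called, 18.7% higher and 18.7% lower), with a median log2 fold change of 0.30. Summed over members, expression was 11767 ± 408 CPM in Serum/LIF and 14393 ± 1211 CPM in EMM (SD, n = 3). At P20 in EMM, 3 members were higher and 2 lower (26.0% of all genes, 13.6% higher and 12.5% lower), with a median of 0.04. In 2i/LIF, 19 were higher and 4 lower at P10 (52.0% of all genes, 26.4% higher and 25.6% lower, median 0.06), and 42 were higher and 2 lower at P20 (44.2% of all genes, 21.0% higher and 23.2% lower, median 0.38). Read against the share of all genes, the higher members were close to the background at P10 in EMM, below it at P20 in EMM and above it at P20 in 2i/LIF. At P20 in EMM, leaving out P20 EMM 2 or 3 or P20 Serum/LIF 2 or 3 left 1 higher member, and leaving out P20 EMM 1 or 3 or P20 Serum/LIF 1 left 1 lower member. The lower members in P10 2i/LIF numbered 9 without P10 2i/LIF 1, 2 without P10 2i/LIF 2 or P10 Serum/LIF 1, and 1 without P10 Serum/LIF 2. These comparisons share the Serum/LIF libraries of a passage. Libraries of low depth fell among these groups: P10 EMM 3 (7329835 counts), P20 2i/LIF 1 (6944904 counts) and P10 2i/LIF 1 (10030841 counts), and 9 of 92 members (9.78%) were higher in all 3 than in any of the other 15 libraries, against 158 of 16054 genes (0.984%). These 3 libraries were set apart after the data were seen, so the counts are a description. P10 EMM 2 (10551862 counts) and P10 2i/LIF 2 (10866656 counts) were nearly as shallow and stood among the other 15. The part of depth in this was not tested. Markers of fibroblasts summed to 143 to 171 CPM in P10 Serum/LIF and 229 to 456 CPM in P20 Serum/LIF, against 2.89 to 23.3 CPM in EMM and 2i/LIF. At P10, the trophoblast markers summed to 79.3 to 90.2 CPM in Serum/LIF, 24.7 to 32.3 CPM in EMM and 45.0 to 57.4 CPM in 2i/LIF, and the primitive endoderm markers to 11.05 to 14.5, 6.99 to 8.03 and 5.86 to 6.63 CPM. The mesoderm and neural markers summed to 20.3 to 52.2 CPM in P10 Serum/LIF, 8.03 to 11.01 CPM in P10 EMM and 43.5 to 58.9 CPM in P10 2i/LIF, and the ESC markers to 5356 to 5642, 6728 to 8679 and 4779 to 5660 CPM. At P20 in 2i/LIF, the trophoblast markers were at 51.9 to 55.8 CPM against 72.8 to 88.0 CPM in Serum/LIF, the primitive endoderm markers at 4.97 to 8.72 against 14.5 to 20.2 CPM, and the mesoderm and neural markers at 11.6 to 14.96 against 25.8 to 28.1 CPM. The part of these markers in the comparisons was not tested.

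**Figure D4:**
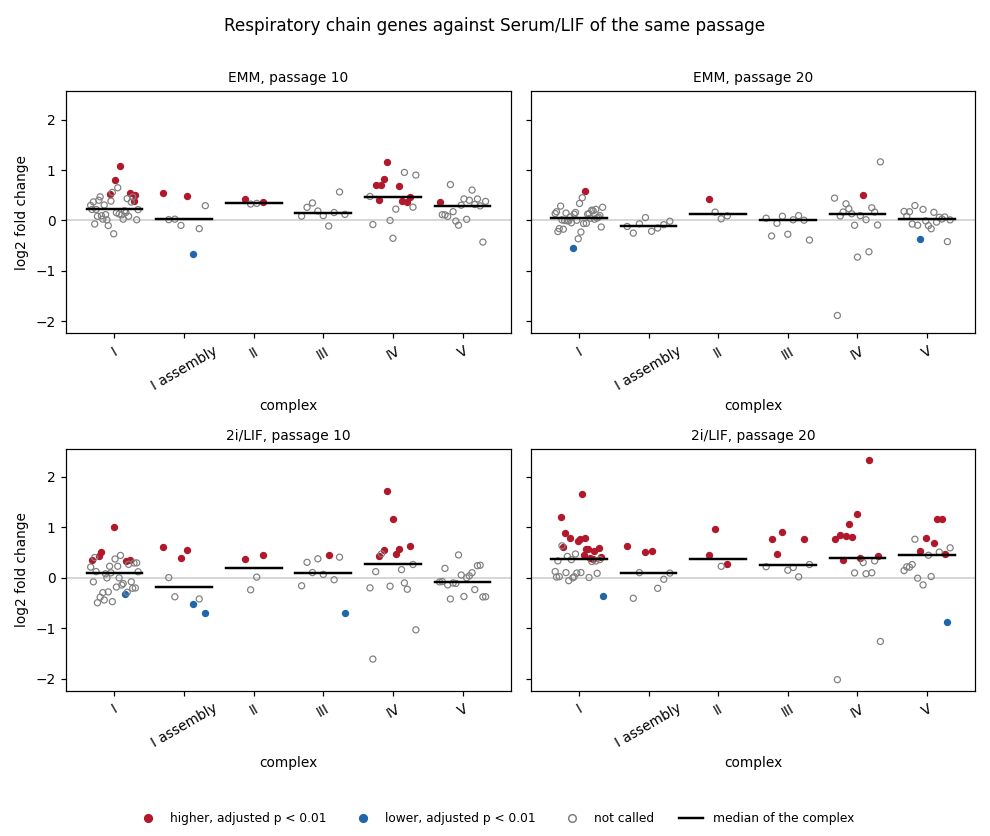
Log2 fold change of each tested member against Serum/LIF of the same passage (y axis) by complex (x axis), for EMM and 2i/LIF at P10 and P20; colours and lines are as in the plot of the time course by complex. The panel of 2i/LIF at P20 holds 42 red points, and that of EMM at P20 holds 3.

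At P10 in EMM, complex IV was called most often: 9 of 17 tested members were higher (median 0.47), beside 18.7% of all genes higher. In complex I 6 of 36 were higher (median 0.22), in complex II 2 of 4 (0.35) and in complex V 1 of 18 (0.30), Atp5a1 (0.36, adjusted p = 0.00512). Complex III had a median of 0.16 and no call in edgeR or DESeq2, with 2 of 9 at an unadjusted p under 0.05. All genes were not compared at that unadjusted threshold. Leaving out P10 EMM 2, P10 Serum/LIF 2 or P10 Serum/LIF 3 gave 12 higher members each. Without the 3 libraries of low depth 30 were higher, including 19 of the 20.

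In all, 10 members were called higher both at 24 h in the time course and at P10 in EMM: Cox6b1, Cox6b2, Cox7a2l, Cox7b, Ndufaf1, Ndufb5, Ndufb9, Ndufs8, Sdha and Sdhd. They were 10 of the 27 and 10 of the 20, and 10.9% of the 92 members, against 10.6% of the 14652 genes tested in both experiments, a share near the background. Of these, Cox7a2l, Ndufb9 and Sdha were also called at P20, and they were the 3 higher members there. Cox7a2l had 2231, 2170 and 2050 counts in P10 Serum/LIF and 2751, 3593 and 4039 in P10 EMM (log2 fold change 0.68, SE 0.139, adjusted p = 0.000505). At P20 it had 1940, 1796 and 1507 counts in Serum/LIF and 2383, 2508 and 2557 in EMM (0.51, SE 0.138, adjusted p = 0.00738). No EMM library fell into the range of Serum/LIF at either passage, although the P20 call was lost on leaving out any 1 of the 6 libraries compared.

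Ndufb9 had 1082, 1117 and 1077 counts in P10 Serum/LIF and 1852, 2361 and 2751 in P10 EMM (1.08, SE 0.159, adjusted p = 1.85e-05), and 1086, 933 and 877 against 1332, 1459 and 1557 at P20 (0.59, SE 0.158, adjusted p = 0.00662). The P20 call was lost without P20 EMM 2 or 3 or P20 Serum/LIF 2 or 3. Sdha had 4645, 4332 and 4139 counts in P10 Serum/LIF and 5360, 6010 and 6233 in P10 EMM (0.42, adjusted p = 0.0003), and 3911, 3988 and 3770 against 5131, 5268 and 5215 at P20 (0.42, adjusted p = 0.000506). The change of Sdha was of the same size at either passage. Sdha was higher in 2i/LIF too, by 0.37 at P10 (adjusted p = 0.000709) and 0.45 at P20 (adjusted p = 0.00014). Cox7a2l was higher in 2i/LIF at P10 (0.57, adjusted p = 0.00157) and not called at P20 (0.30, adjusted p = 0.0741), and Ndufb9 was higher at P20 (0.79, adjusted p = 0.000368) and not called at P10 (0.44, adjusted p = 0.0214). The lower members were Ndufaf6, an assembly factor, at P10 (-0.66, adjusted p = 0.000231), and Ndufb10 (-0.54, adjusted p = 0.000511) and Atp5g1 (-0.36, adjusted p = 0.00197) at P20.

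**Figure D5:**
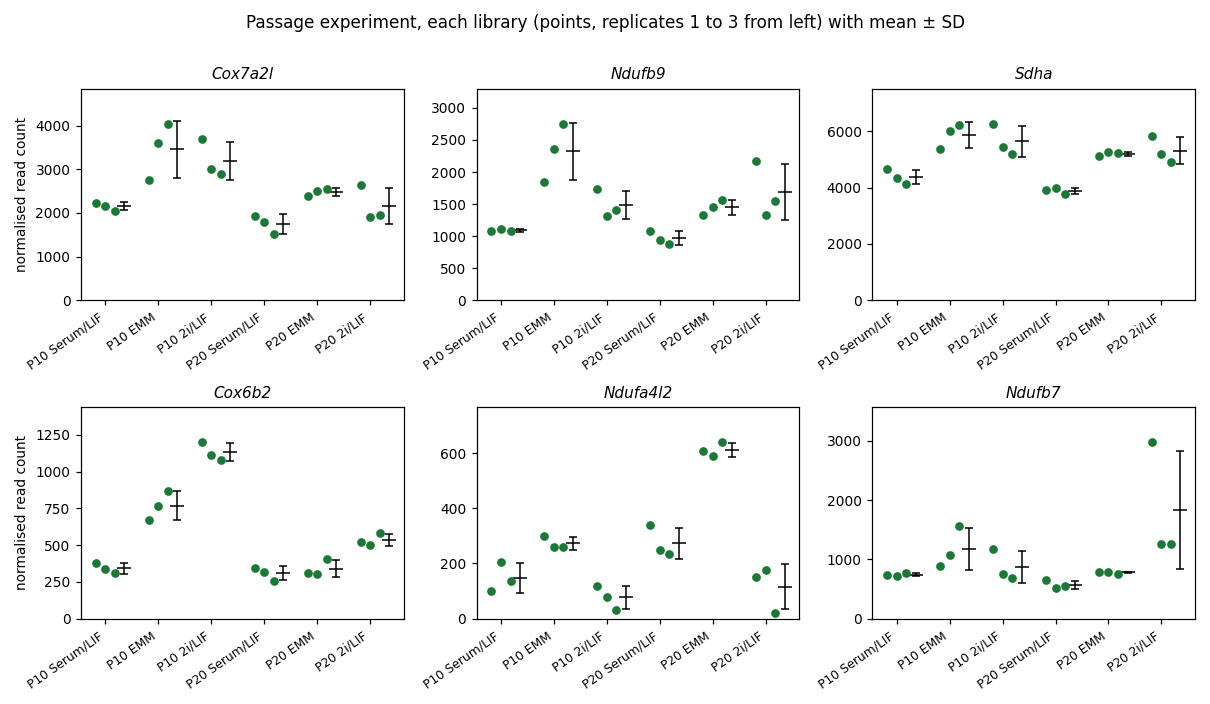
Normalised read counts (y axes, from 0) of 6 members in the 18 passage libraries; points are replicates 1 to 3 from left and bars are mean ± SD (n = 3). Cox7a2l, Ndufb9 and Sdha are higher in EMM than in Serum/LIF at either passage, Cox6b2 is highest in P10 2i/LIF, Ndufa4l2 is highest in P20 EMM, and Ndufb7 in P20 2i/LIF is highest in replicate 1.

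The isoform Cox6b2 showed the largest rise at P10 in EMM and in 2i/LIF. It had 382, 341 and 308 counts in P10 Serum/LIF, 670, 767 and 870 in P10 EMM and 1201, 1117 and 1080 in P10 2i/LIF, with no overlap among the 3 media. The log2 fold change was 1.15 in EMM (SE 0.134, adjusted p = 1.25e-06) and 1.72 in 2i/LIF (SE 0.133, adjusted p = 3.54e-09). At P20 it had 348, 321 and 255 counts in Serum/LIF, 309, 303 and 405 in EMM and 524, 505 and 584 in 2i/LIF, so the difference remained for 2i/LIF (0.80, adjusted p = 6.2e-05) and not for EMM. The change of the EMM effect from P10 to P20 was itself called (-1.02, SE 0.189, adjusted p = 0.000648), and so was that of the 2i/LIF effect (-0.92, SE 0.188, adjusted p = 0.00132). The EMM effect on Ndufaf1, which had 323, 390 and 371 counts in P10 EMM and 236, 239 and 239 in P20 EMM, was also lower at P20 (-0.67, SE 0.167, adjusted p = 0.00598). For a difference of the EMM effect between passages edgeR called these 2 members alone, and DESeq2 called 3 as lower (14.7% of all genes were called, 8.28% higher and 6.43% lower). No member was called in the other direction by edgeR or DESeq2, and 25 of 92 had an unadjusted p under 0.05 in either direction. The share of all genes at that unadjusted threshold was not compared. Leaving out a single library left 1 to 3 members lower.

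Among the isoforms, Cox7a1 was highest in 2i/LIF. It had 71, 68 and 53 counts in P10 Serum/LIF, 47, 55 and 50 in P10 EMM and 144, 128 and 163 in P10 2i/LIF. It was higher in 2i/LIF than in Serum/LIF at P10 (1.17, SE 0.247, adjusted p = 0.000456) and P20 (1.27, SE 0.246, adjusted p = 0.000258), and EMM lay below 2i/LIF at either passage (-1.53 and -1.99). Ndufa4l2 went the other way. It had 301, 260 and 259 counts in P10 EMM and 118, 80 and 33 in P10 2i/LIF (1.93, SE 0.482, adjusted p = 0.00226), and 606, 591 and 640 against 150, 176 and 22 at P20 (2.43, SE 0.441, adjusted p = 0.000117). Serum/LIF lay between, with 100, 204 and 138 counts at P10 and 338, 250 and 233 at P20, and its differences from either medium did not pass an adjusted p of 0.01. The P10 call against 2i/LIF was lost without P10 2i/LIF 3 (1.48). Cox7b2 in P20 2i/LIF (2.34, adjusted p = 0.00172) rests on 14, 10 and 30 counts, against 2, 4 and 4 in Serum/LIF. It was not called without P20 2i/LIF 3 or P20 Serum/LIF 1.

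At P20 in 2i/LIF the rise reached all complexes: 16 of 36 complex I subunits, 3 of 8 assembly factors, 3 of 4 complex II, 4 of 9 complex III, 10 of 17 complex IV and 6 of 18 complex V members were higher. Of all genes, 21.0% were called higher. The largest rise after Cox7b2 was Ndufb7, an accessory subunit of complex I, with 653, 516 and 544 counts in P20 Serum/LIF and 2979, 1260 and 1264 in P20 2i/LIF (1.66, SE 0.278, adjusted p = 5.88e-05). Without the libraries of low depth it was 1.15 (adjusted p = 3.2e-08). Sdhb had 1227, 1020 and 1086 counts in Serum/LIF and 2972, 1840 and 1748 in 2i/LIF (0.97, SE 0.204, adjusted p = 0.000568, and 0.70 without the libraries of low depth). Uqcrb, a complex III subunit, was higher by 0.90 (adjusted p = 9.85e-05), and Atp5k had the largest rise in complex V, from 524, 391 and 419 counts in P20 Serum/LIF to 1325, 711 and 993 in P20 2i/LIF (1.17, adjusted p = 4.02e-05). In Ndufb7, Sdhb and Atp5k the shallow P20 2i/LIF 1 was the highest. Atp5g1, which encodes a copy of the membrane ring subunit of ATP synthase, was even across replicates, with 2276, 1823 and 2085 counts in Serum/LIF, 1545, 1708 and 1562 in EMM and 2989, 2947 and 2949 in 2i/LIF (0.52 for 2i/LIF, SE 0.0818, adjusted p = 2.78e-05). Without the 3 libraries of low depth, 42 members were again higher, 38 of them shared, and 3 were lower. Without P20 Serum/LIF 1, 1 member rather than 2 was lower. At P10, by contrast, that setting moved the lower members in 2i/LIF from 4 to 23 and the median from 0.06 to -0.08.

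In the 3 P20 2i/LIF libraries, genes of chromosomes 6 and 8 were shifted upwards as a whole. The median log2 deviation of all genes from their mean over the experiment was 0.20 to 0.28 on chromosome 6 and 0.28 to 0.30 on chromosome 8, against -0.11 to 0.11 and -0.16 to 0.09 in the other 15 libraries. On these chromosomes lie 7 members (Ndufa4, Ndufa5, Ndufa9 and Ndufb2 on 6, and Cox4i1, Ndufa13 and Ndufb7 on 8), and 6 were higher with a median of 0.79. On the other chromosomes 36 of 85 were higher with a median of 0.36. The copy number of these chromosomes was not tested.

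Within EMM, P20 was also compared with P10, and passage cannot be told apart from the time of collection. From P10 to P20, 32 members were lower and 2 higher (25.3% of all genes, 13.3% higher and 11.9% lower), with a median of -0.37. Markers moved between the same groups: the ESC markers summed to 6728 to 8679 CPM at P10 and 5097 to 5243 CPM at P20, the trophoblast markers to 24.7 to 32.3 and 69.6 to 75.3 CPM, and the primitive endoderm markers to 6.99 to 8.03 and 14.4 to 22.1 CPM. The mesoderm and neural markers summed to 8.03 to 11.01 and 15.99 to 20.2 CPM, and the fibroblast markers to 18.4 to 23.3 and 9.72 to 12.9 CPM. The part of these markers in the result was not tested. The lower members included 9 of 36 complex I subunits, 2 of 8 assembly factors, 1 of 4 complex II, 4 of 9 complex III, 8 of 17 complex IV and 8 of 18 complex V. Besides Cox7b2 (-2.32, adjusted p = 0.00614, at 1 to 19 counts) and Cox6b2 (-1.17, adjusted p = 2.8e-06), the largest falls were those of Usmg5, a small ATP synthase protein (-1.06, adjusted p = 0.0015), Atp5mpl (-0.96, adjusted p = 0.00683), the complex III hinge protein Uqcrh (-0.91, adjusted p = 0.00116) and Ndufb3 (-0.90, adjusted p = 0.000654). The 2 higher members were Atp5g2, another gene of the ring subunit (0.86, adjusted p = 0.00548), and Ndufv3 (0.32, adjusted p = 0.00368). Both calls were lost without P10 EMM 3, P20 EMM 2 or P20 EMM 3, and that of Atp5g2 also without P10 EMM 2 or P20 EMM 1. Uqcrh had 1945, 2540 and 2964 counts in P10 EMM and 1201, 1421 and 1311 in P20 EMM, and did not overlap. The count of lower members depended on single libraries. It was 14 without P10 EMM 2, 15 without P10 EMM 3, and 9, 14 and 16 without P20 EMM 1, 2 and 3, while without the libraries of low depth, P10 EMM 3 among them, it was 41 and included 31 of the 32.

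Within 2i/LIF, 13 members were higher and 3 lower at P20 than at P10 (28.3% of all genes, 13.1% higher and 15.2% lower). The mesoderm and neural markers went from 43.5 to 58.9 CPM at P10 to 11.6 to 14.96 CPM at P20, the ESC markers from 4779 to 5660 CPM to 5467 to 7314 CPM, and their part in the result was not tested. Ndufb7, Ndufa5 and Cox4i1, rises among the 10 largest changes, lie on chromosomes 6 and 8. The 13 became 23 without P10 2i/LIF 1 and 6, 7 and 8 without P10 2i/LIF 2, P10 2i/LIF 3 and P20 2i/LIF 1, and the 3 became 1 without P20 2i/LIF 2. Same-numbered 2i/LIF libraries of P10 and P20 deviated together, and with a replicate block within 2i/LIF 23 were higher, all 13 among them, and 3 lower. Uqcrq, a complex III subunit, had 877, 659 and 696 counts at P10 and 1678, 1271 and 1420 at P20 (0.96, SE 0.118, adjusted p = 5.11e-06). It was lower in 2i/LIF than in Serum/LIF at P10 (-0.71, adjusted p = 4.09e-05) and not called at P20. Within Serum/LIF, edgeR called 0 of 92 members between passages (6.01% of all genes were called, 3.16% higher and 2.85% lower), with 23 at an unadjusted p under 0.05 and a median of -0.14, and DESeq2 called 1 higher and 2 lower. The share of all genes at that unadjusted threshold was not compared. The 0 depended on the fit: with no filter, with only the groups compared or without the libraries of low depth, members were called, mostly as lower. The 2i/LIF effect, as a signed log2 fold change, differed between passages for 12 members, 10 higher and 2 lower at P20 (20.0% of all genes, 9.16% higher and 10.9% lower). These included Ndufb7 (1.43, adjusted p = 0.0088), Sdhb (1.21, adjusted p = 0.00391), Uqcrq (0.97, adjusted p = 0.000285) and Atp5g1 (0.64, adjusted p = 0.000529). Leaving out a single library moved the 10 to between 3 and 24, the lowest without P10 2i/LIF 2 or 3 or P20 Serum/LIF 2 or 3 and the highest without P10 2i/LIF 1, and the replicate block within 2i/LIF gave 30 higher, the 10 among them, and 2 lower. Of the 10, 5 lie outside chromosomes 6 and 8.

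EMM was also compared with 2i/LIF directly. At P10, 20 members were higher and 6 lower in EMM (45.1% of all genes, 22.9% higher and 22.2% lower), and at P20, 2 were higher and 38 lower (48.6% of all genes, 25.7% higher and 22.9% lower). The higher share at P10 was close to that of all genes, and the difference between passages was not tested for this pair of media. Of the 10 largest changes at P20, Ndufb7, Ndufa13 and Ndufa5 were falls. They lie on chromosomes 6 and 8, whose genes were shifted upwards as a whole in P20 2i/LIF. With a single library left out, the lower members at P20 numbered 30 to 40. At P10 the higher members included 11 of 36 complex I subunits, among them the redox subunits Ndufs1 (0.52, adjusted p = 6.05e-05), Ndufs7 (0.68, adjusted p = 0.000877) and Ndufv1 (0.72, adjusted p = 0.000251). Ndufb4 was lower at either passage, with 141, 118 and 126 counts in P10 EMM against 311, 296 and 326 in P10 2i/LIF (-1.26, adjusted p = 4.72e-06) and a log2 difference of -1.10 at P20. The 2 higher members at P20 were Ndufa4l2 and Ndufv3 (0.62, adjusted p = 1.77e-06). Markers differed between EMM and 2i/LIF at P20. The trophoblast markers summed to 69.6 to 75.3 and 51.9 to 55.8 CPM, and the primitive endoderm markers to 14.4 to 22.1 and 4.97 to 8.72 CPM. The mesoderm and neural markers summed to 15.99 to 20.2 and 11.6 to 14.96 CPM, and the fibroblast markers to 9.72 to 12.9 and 4.97 to 5.82 CPM. The ESC markers summed to 5097 to 5243 and 5467 to 7314 CPM. Their part in the result was not tested. At P10 the count of higher members was 35 without P10 2i/LIF 1 and 9, 10 and 11 without P10 2i/LIF 3, P10 2i/LIF 2 and P10 EMM 3.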

How the data were processed

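RNA from 12 time-course and 18 passage libraries was sequenced. The deposited time-course table holds raw, whole-number read counts for 52630 gene identifiers. The study's methods name STAR and HTSeq, and the submitters' processing notes name featureCounts, so the counter of this table is not certain. The deposited passage table holds estimated counts for 55487 identifiers, made with STAR and Salmon according to the notes, and 9.98% of its entries had a fractional part, which was rounded off before testing. The notes give mm10 as the genome build. Reads of overlapping genes or near-identical copies may be split differently by the counters, so no test was run across the tables, and only shares of counts were set side by side.

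Groups were taken from the labels. Each experiment was fitted across all genes and groups with edgeR 4.0.16 (R 4.3.3) by the quasi-likelihood test after filterByExpr and TMM scaling, which left 16049 and 16054 genes. A gene was called at a Benjamini-Hochberg adjusted p under 0.01 over all genes, with no fold threshold. All adjusted p-values in the text come from that test. Normalised read counts are counts divided by the TMM-scaled library total, times the mean scaled total. The fit was also run on simulated data, the outcome of which is not given here. Differences of a medium effect between passages are interaction terms.

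The members and gene lists were chosen with earlier results of these data known. In each comparison and complex, the called members with the largest rise and fall among those whose groups did not overlap were named, with the redox and catalytic subunits, and the tissue isoforms, and the 10 largest changes of a comparison could also be named. Not each of them is described in every comparison. A member that the rule would name is not reported here. Other members named, such as Ndufb6, were chosen after their values were seen. p-values measure the spread between libraries, and errors of low counts are counting errors that grow as depth falls. Alternatives were another scaling (DESeq2 1.42.0 size factors, library totals), other filters, thresholds and groups in the fit, DESeq2's Wald test, a replicate block and leaving out each library. Replicate numbers, taken from the titles, were held to pair groups only if all 3 same-numbered pairs correlated over 0.1 in their deviations from group means. This held for P10 and P20 2i/LIF (0.13 to 0.30, against -0.25 to 0.05 for other pairs). After the data were seen, a replicate block within 2i/LIF and fits without the libraries that stood apart or of low depth, or with a term for the former, were added. Motifs were searched on both strands of RefSeq windows.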

Additional observations from a re-analysis of the deposited data

Results flagged for a closer look

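Differences between times or passages that were themselves tested and passed an adjusted p of 0.01 (edgeR's quasi-likelihood test, all genes) are listed here as values. Between 24 h and 3 h in EMM, 18 members were higher and 7 lower (20.8% of all genes were higher and 19.2% lower). EMM 24 h 2 and 3 were among the libraries that stood apart, and no EMM 3 h library was. Members that moved between these times included Cox4i2 (-1.92), Ndufaf4 (-0.25), Ndufa9 (-0.21), Atp5b (-0.15), Uqcrh (0.21), Ndufaf1 (0.38), Atp5s (0.53), Ndufb2 (0.55) and Cox6b2 (0.69), as log2 fold changes of 24 h against 3 h.

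The effect of EMM against Serum/LIF as a signed log2 fold change was higher at P20 than at P10 for 0 members and lower for 2, which were Cox6b2 (-1.02) and Ndufaf1 (-0.67, both as the log2 difference between the P20 and P10 effects). Both counts lay below the share of all genes, of which 8.28% were higher and 6.43% lower. By edgeR, 25 of 92 members had an unadjusted p under 0.05 in that test, a threshold at which all genes were not compared, and DESeq2 called 0 and 3.

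The effect of 2i/LIF against Serum/LIF as a signed log2 fold change was higher at P20 than at P10 for 10 members and lower for 2, and a replicate block within 2i/LIF gave 30 and 2. Of all genes, 9.16% were higher and 10.9% lower. With a single library left out, the 10 became 3 to 24. Uqcrq went from -0.71 at P10 to 0.26 at P20, and Ndufv3 from 0.12 to -0.36. The log2 differences were -0.92 for Cox6b2, -0.48 for Ndufv3, 0.38 for Cyc1, 0.64 for Atp5g1, 0.71 for Ndufa9, 0.96 for Cox4i1, 0.97 for Uqcrq, 1.07 for Atp5k, 1.08 for Ndufa13, 1.21 for Sdhb, 1.27 for Ndufa5 and 1.43 for Ndufb7. Ndufa5, Ndufa9, Ndufa13, Ndufb7 and Cox4i1 lie on chromosomes 6 and 8, whose genes were shifted as a whole in P20 2i/LIF.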

How the results depend on the processing

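Counts are given as higher/lower members, and EMM or 2i/LIF stands against Serum/LIF unless 2 media are named. Of the values of named members over all alternatives, 10816 kept their direction and their side of the threshold, 496 were not called either way and turned sign, 507 lost the call and 436 gained one, while 11 turned sign and were called under the alternative, though not in the fit reported. At 3 h these 11 included Atp5g3 (0.25 without the 5 libraries that stood apart, 0.26 with a term for them), Ndufaf8 (0.89 and 0.66), and with the term Cox6a1 (0.35), Cox8a (0.25), Ndufb7 (0.43) and Ndufs7 (0.24). Between 24 h and 3 h they were Ndufb7 (-0.41 without these libraries) and Ndufs7 (-0.33 without, -0.24 with the term).

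DESeq2's Wald test gave 11 higher at 3 h, 4 lower in P20 EMM, 7 lower in P10 2i/LIF and 1/2 for Serum/LIF between passages. DESeq2 size factors gave 1 higher in P20 EMM. Library totals gave 1 higher at 3 h, 12 higher in P10 EMM, 1/5 in P20 EMM, 7 lower in P10 and 4 lower in P20 2i/LIF, and 2 higher for Serum/LIF between passages, and the median of the members became -0.04 at 3 h and -0.05 in P20 EMM. No filter gave 14/15 at 3 h, 20/5 at 9 h, 46 higher at 24 h, 36 higher between 24 h and 3 h, 8/4 in P20 EMM, 19 lower in P10 and 4 lower in P20 2i/LIF, 28 higher between passages in 2i/LIF, 2/18 in Serum/LIF, and 4 lower and 29 higher for the passage differences of the EMM and 2i/LIF effects. At least 10 counts in every library gave 12 higher in P10 EMM, 1/4 in P20 EMM and 8 lower in P10 2i/LIF. Fitting only the groups compared gave 11 higher at 3 h, 0 lower at 9 h, 9/6 in P20 EMM, 0 lower in P20 2i/LIF, 12 higher for EMM against 2i/LIF at P10, 4/50 between passages in EMM, 2/1 in 2i/LIF and 2/17 in Serum/LIF, and 9 lower and 4/1 for the passage differences of the EMM and 2i/LIF effects. An adjusted p under 0.05 gave 16/5 at 3 h, 24/5 at 9 h, 9 lower at 24 h, 32 higher between 24 h and 3 h, 35 higher in P10 EMM, 6/7 in P20 EMM, 29/8 in P10 2i/LIF, 5 lower in P20 2i/LIF, 11 lower for EMM against 2i/LIF at P10, 4 higher between passages in EMM, 21 higher in 2i/LIF and 3/4 in Serum/LIF, and 1/12 and 21 higher for the passage differences. Asking also for a log2 change above 1 gave 0/0 at 3 h and 9 h, 0/1 at 24 h, 0/2 between 24 h and 3 h, 2/0 in P10 EMM, 0/0 in P20 EMM, 2/0 in P10 2i/LIF, 7/0 in P20 2i/LIF, 2/2 and 1/7 for EMM against 2i/LIF at P10 and P20, 0/3 between passages in EMM and 1/1 in 2i/LIF, and 1 lower and 5/0 for the passage differences. Subunits alone gave 0 lower in P10 EMM, 2 lower in P10 2i/LIF and 1 lower for the passage difference of EMM. Without chromosomes 6 and 8, 5 were higher for that of 2i/LIF.

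Chosen after the data were seen, the term gave 17 higher at 3 h, 28/4 at 9 h and 45/7 at 24 h, and leaving out the 5 libraries gave 3 lower at 9 h and 17 higher at 24 h. Leaving out the 3 libraries of low depth gave 7/6 in P20 EMM, 23 lower in P10 2i/LIF, 32 higher for EMM against 2i/LIF at P10, 1 higher between passages in EMM, 4/14 in Serum/LIF, and 7 lower and 27 higher for the passage differences. The cause was not tested.

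With each library left out in turn, higher members ranged from 2 to 7 at 3 h, 8 to 13 at 9 h, 22 to 28 at 24 h, 10 to 34 between 24 h and 3 h, 12 to 21 in P10 EMM, 1 to 4 in P20 EMM, 14 to 18 in P10 and 29 to 44 in P20 2i/LIF, 9 to 35 and 2 to 2 for EMM against 2i/LIF, 0 to 2, 6 to 23 and 0 to 0 between passages in EMM, 2i/LIF and Serum/LIF, and 0 to 1 and 3 to 24 for the passage differences. In the same order, lower members ranged from 1 to 2, 0 to 4, 2 to 4, 4 to 8, 1 to 1, 1 to 2, 1 to 9, 1 to 3, 5 to 5, 30 to 40, 9 to 36, 1 to 3, 0 to 1, 1 to 3 and 2 to 2.

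Same-numbered libraries, by the titles, correlated in their deviations at -0.13 to 0.21 in the time course and -0.21 to 0.30 in the passage experiment. Column names number the EMM libraries of the time course differently, and by them Serum/LIF and EMM pairs ran from -0.13 to 0.28. A replicate block over all groups gave 3 lower at 9 h and 1 lower for the passage difference of EMM. A replicate block within 2i/LIF, added after the data were seen, gave 23 higher between passages in 2i/LIF and 30 higher for the passage difference of its effect.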

Other observations

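Outside the member rule, assembly factors and partner genes were also tested in long-term EMM. At P10, 11 of the 59 tested rose and 7 fell, and at P20 the numbers were 4 and 6, beside 18.7% of all genes higher and 18.7% lower at P10 and 13.6% and 12.5% at P20. The counts at P10 were thus near or below the background. Tmem126b, an assembly factor of complex I, was higher at P10 (log2 fold change 1.17) and P20 (1.05), as were Sco2, a copper chaperone of complex IV (0.97 and 0.72), and Atpaf1, an assembly factor of ATP synthase (0.68 and 0.52). Tmem70 was lower at either passage (-0.92 and -0.74), as it was at 24 h of the time course (-0.79).

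The 13 protein genes of the mitochondrial genome were all tested in the passage experiment. In 2i/LIF, 9 were higher than in Serum/LIF at P10, with a median log2 fold change of 1.53, beside 26.4% of all genes called higher. At P20 the median was 0.03. The 2i/LIF effect was lower at P20 than at P10 for 2 genes (10.9% of all genes), with a median difference of -1.62. Between passages the median moved by 1.25 within Serum/LIF, by 0.84 within EMM and by -0.25 within 2i/LIF. In EMM against Serum/LIF the medians were 0.37 at P10 and 0.13 at P20, and 0 of the 13 were called at either passage (37.4% and 26.0% of all genes were called).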
